A study of Mus musculus with 8 samples.

Results

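The 33 genes described here are hematopoietic stem and progenitor genes, chosen by name with earlier results of these data known. They encode growth factor receptors, surface markers, secreted factors and regulators of stem and progenitor cells. All 33 were found among the 41214 genes counted, and all 33 passed the filter on low counts in each of 5 tests. They were measured by RNA sequencing of total bone marrow from 8 C57Bl6 mice, 2 in each of 4 groups. Gfi1 is a transcriptional repressor that controls myeloid differentiation and keeps stem cells quiescent. All 8 mice carried a changed Gfi1 locus and none was wild type. The KD mice carried a human GFI1 coding sequence in the Gfi1 locus, whose expression is kept low by a selection cassette, and the KO mice lacked Gfi1. Ages were 39 and 42 days in the young KD group and 48 and 44 days in the young KO group. The sick KD group was aged 187 and 78 days, with disease given as AML in the labels and as a myeloproliferative disease in the study's text. The old KO group was healthy at 158 and 101 days. Values of a group are given below in this order of ages. Sick and young KD mice differed in age as well as in disease, so these cannot be told apart, and each group had 1 library for each of 2 mice.

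Stem cells give rise to all blood lineages through progenitors that lose self-renewal stepwise as they commit. The receptors Kit and Flt3 receive survival and proliferation signals. CD34, SCA-1 (Ly6a), EPCR (Procr) and the SLAM receptors are the surface proteins by which these cells are sorted. Factors such as Runx1, Gata2, Erg, Lmo2 and Lyl1 bind together at stem cell enhancers. Stem cells are rare in whole marrow, where several of these genes are also transcribed in far more numerous lymphoid, myeloid, erythroid or megakaryocytic cells.

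Between 26642067 and 42679114 reads were counted on genes per library. Reads counted as overlapping no gene feature made up 42.0% and 38.8% of uniquely aligned reads for the 2 sick KD mice. For the others this share was 26.9% to 33.8%. Mitochondrial genes took 1.42% and 1.16% of counts in sick KD against 0.464% to 0.787% in the others. The 16 granulocyte-monocyte progenitor, 14 erythroid and 13 megakaryocyte marker genes examined had counts in every library. Mouse Gfi1 did not separate the genotypes in the direction of their names. Its level in TMM-normalized CPM, a count scaled to library size that is the unit used throughout, was 5.43 and 7.08 in sick KD and 6.20 and 7.01 in young KD, against 13.2 and 29.9 in old KO and 14.2 and 14.4 in young KO. The human coding sequence of the KD allele was not part of the counted genes, so these counts check no label, and every direction below rests on the group labels.

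Levels were compared between genes as CPM per kilobase of exon, taking the median over the 8 libraries. Cd48, a SLAM receptor that is on at progenitor stages and in most mature leukocytes, was highest at 163 CPM per kilobase. It was followed by the transcription factor genes Lyl1 at 75.8, Lmo2 at 65.7, Fli1 at 44.7 and Myb at 26.2 CPM per kilobase. The lowest genes were Mecom at 0.0781 CPM per kilobase, Hlf at 0.205, Robo4 at 0.243, Mycn at 0.298 and Cdkn1c at 0.432. All 33 genes gave 12 or more counts in every library, the fewest being for Procr in the 187-day sick KD mouse. Summed over the 33 genes, the level was 1454 and 1545 CPM in sick KD, 1594 and 1678 in old KO, 1683 and 1588 in young KO and 1622 and 1658 in young KD.

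**Figure D1:**
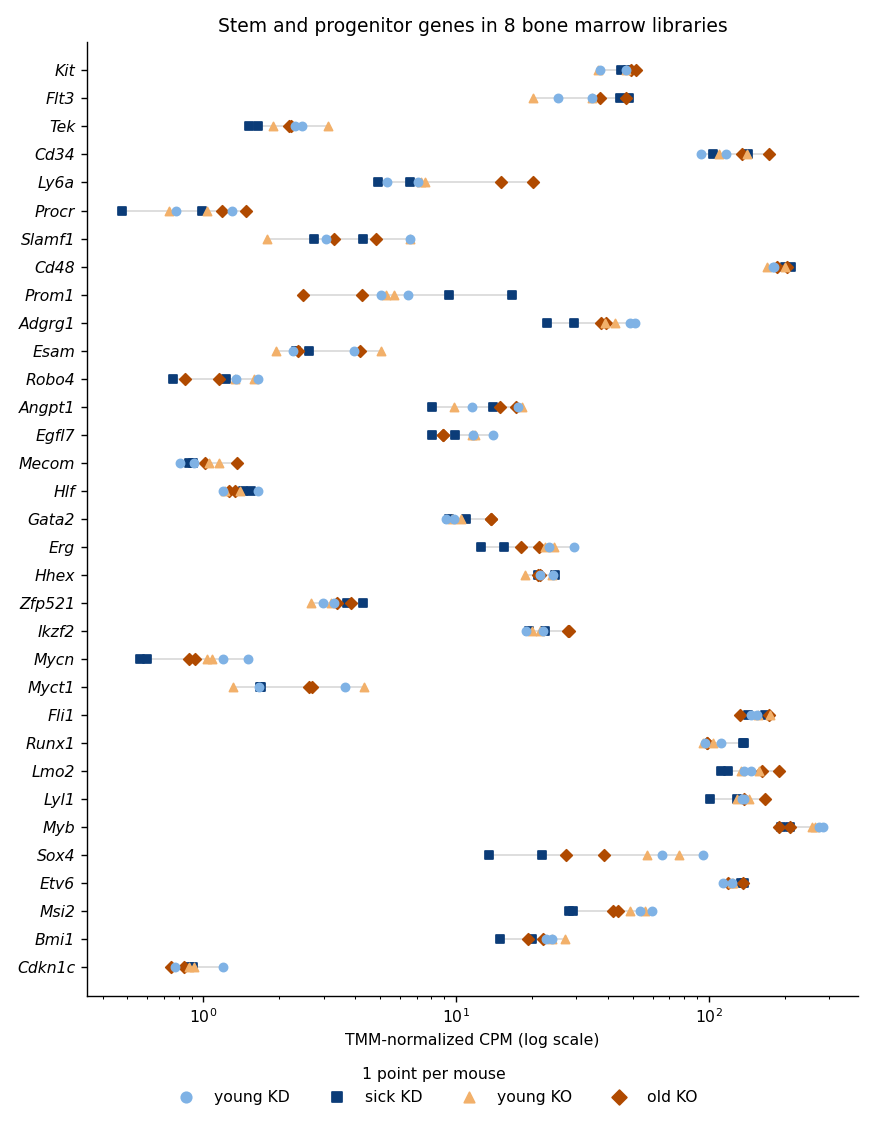
Normalized CPM (log scale) of each of the 33 genes in each of the 8 mice, with a grey line from the lowest to the highest library. Sox4 and Prom1 span the widest ranges, from 13.5 to 94.6 and from 2.49 to 16.7 CPM.

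The genes differed in how far they varied. The highest library exceeded the lowest 6.99-fold for Sox4, 6.71-fold for Prom1, 4.10-fold for Ly6a and 3.67-fold for Slamf1. At the other end, the ratio was 1.21 for the ETS family repressor gene Etv6, 1.25 for Cd48, 1.32 for Fli1, 1.33 for Hhex and 1.38 for Hlf.

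Sick KD marrow was compared with young KD marrow to find what differed once disease had developed. Of the 33 genes, 6 fell in sick KD marrow (Sox4, Msi2, Adgrg1, Erg, Mycn and Myb), while the receptor gene Flt3 and the surface marker gene Prom1 rose. The 6 lower genes were 18.2% of the 33, where 11.4% of all genes tested were lower. The 2 higher genes were 6.06%, where 9.45% of all genes were higher. The median log2 fold change was -0.23 over the 33 genes and 0.01 over all genes tested. In bulk marrow, fewer cells that transcribe a gene and less RNA per cell cannot be told apart.

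Sox4 (ENSMUSG00000076431, chr13:28948919-28953713, minus strand) encodes an HMG-box transcription factor needed for early B cell development and active in stem cells. It was at 13.5 and 21.9 CPM in sick KD, 94.6 and 65.6 in young KD, 27.2 and 38.5 in old KO and 57.1 and 76.4 in young KO. Every sick KD and old KO library lay below every young library, and the sick KD libraries lay lowest. Between sick and young KD it fell (log2 fold change -2.16 ± 0.27 (SE), edgeR adjusted p = 0.00695), and the call held without each library in turn. The summed level of 14 lymphoid progenitor genes, among them the recombinase gene Rag1, was also lower in every sick and old library than in every young library, at 217 and 263 CPM in sick KD, 223 and 336 in old KO, 616 and 898 in young KO and 1051 and 775 in young KD. Of these 14 genes, 13 fell and 1 rose in sick KD. The recombinase gene itself fell in sick KD (log2 fold change -5.91 ± 0.80 (SE), edgeR adjusted p = 0.00820). Their part in the Sox4 values was not tested.

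Msi2 (ENSMUSG00000069769, chr11:88339382-88718513, minus strand) encodes an RNA-binding protein that maintains stem cell self-renewal. It was at 29.0 and 28.1 CPM in sick KD against 59.7 and 53.4 in young KD, 42.0 and 43.6 in old KO and 48.6 and 55.9 in young KO. The sick KD libraries were well below all 6 others. The fall from young KD had the smallest adjusted p of the 33 genes (log2 fold change -0.98 ± 0.12 (SE), edgeR adjusted p = 0.00608) and held without each library.

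Adgrg1 (ENSMUSG00000031785, chr8:94974751-95014217, plus strand), which encodes the adhesion receptor GPR56 found on stem cells, was at 23.0 and 29.2 CPM in sick KD and 51.3 and 48.8 in young KD. The KO libraries lay between these, at 42.7 and 38.9 CPM in young KO and 37.3 and 39.3 in old KO. Adgrg1 fell in sick KD (log2 fold change -0.93 ± 0.14 (SE), edgeR adjusted p = 0.0116), and that call also held without each library.

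Erg (ENSMUSG00000040732, chr16:95359169-95586593, minus strand), an ETS factor gene required for stem cell maintenance, was at 12.6 and 15.4 CPM in sick KD, 29.3 and 23.3 in young KD, 24.4 and 22.6 in young KO and 18.2 and 21.2 in old KO. The sick KD libraries were the lowest of the 8. Erg fell (log2 fold change -0.90 ± 0.17 (SE), edgeR adjusted p = 0.0186), but without the 39-day young KD mouse its adjusted p was 0.0746 at a log2 fold change of -0.74. Erg is also transcribed in endothelial cells, and the summed level of 14 endothelial genes was 154 and 143 CPM in sick KD and 146 and 214 in young KD. Of the 12 endothelial genes tested, 2 fell, with a median log2 fold change of -0.55. They were the VEGF receptor gene Kdr (-1.30 ± 0.25 (SE), edgeR adjusted p = 0.0198) and the scavenger receptor gene Stab2 (-0.86 ± 0.18, adjusted p = 0.0239). The part of endothelial transcripts in the Erg values was not tested.

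Mycn (ENSMUSG00000037169, chr12:12936093-12941914, minus strand), a MYC family gene that acts with Myc in stem cells, was low, with 15 counts in the lowest library. It was at 0.599 and 0.564 CPM in sick KD, 1.20 and 1.50 in young KD, 0.878 and 0.925 in old KO and 1.08 and 1.04 in young KO. The sick KD libraries lay below all others and the young KD libraries above all others. Its fall (log2 fold change -1.20 ± 0.32 (SE), edgeR adjusted p = 0.0455) passed narrowly, and leaving out any of the 4 mice raised the adjusted p to between 0.105 and 0.194. It was 0.174 with DESeq2 and 0.0531 with the trend on GC content, length and span removed.

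Myb (ENSMUSG00000019982, chr10:21124935-21160984, minus strand), which encodes a factor that drives progenitor proliferation, was among the more abundant genes. It was at 193 and 211 CPM in sick KD and 284 and 273 in young KD, with 190.4 and 209 in old KO and 258 and 264 in young KO. All 4 libraries of the sick and old mice lay below all 4 young libraries. The decline in sick KD was modest (log2 fold change -0.46 ± 0.11 (SE), edgeR adjusted p = 0.0330). Without the 39-day young KD mouse the adjusted p was 0.271, and without the 42-day mouse it was 0.148.

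Both genes that rose encode cell surface proteins. Flt3 (ENSMUSG00000042817, chr5:147330741-147400489, minus strand), the FLT3 ligand receptor of multipotent and lymphoid-primed progenitors, was at 48.6 and 44.6 CPM in sick KD and 25.2 and 34.4 in young KD. Its levels were 47.0 and 37.1 CPM in old KO and 34.7 and 20.3 in young KO, so the old KO and sick KD ranges overlapped. Flt3 rose in sick KD (log2 fold change 0.65 ± 0.17 (SE), edgeR adjusted p = 0.0399). The adjusted p was 0.0967 without the 187-day sick KD mouse, 0.0552 without the 78-day sick KD mouse and 0.237 without the 39-day young KD mouse. Fitted together with all 8 libraries, Flt3 did not pass (log2 fold change 0.66, adjusted p = 0.0840).

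Prom1 (ENSMUSG00000029086, chr5:43993620-44102032, minus strand), which encodes the pentaspan membrane protein CD133, was at 16.7 and 9.41 CPM in sick KD and 5.06 and 6.44 in young KD. It was at 5.31 and 5.69 CPM in young KO and 2.49 and 4.24 in old KO. Both sick KD libraries were above the other 6, with the 187-day mouse far above the 78-day mouse. Prom1 rose (log2 fold change 1.19 ± 0.30 (SE), edgeR adjusted p = 0.0377). Without the 187-day sick KD mouse the log2 fold change was 0.72 with an adjusted p of 0.0978, and without the 39-day young KD mouse the adjusted p was 0.0771.

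Runx1 (ENSMUSG00000022952, chr16:92601466-92826149, minus strand), a core factor of definitive blood formation, lay at the threshold. It was at 137 and 138 CPM in sick KD, 96.4 and 112 in young KD, 98.3 and 98.5 in old KO and 95.3 and 104 in young KO. The 2 sick KD libraries lay close together and were the highest of the 8. Against young KD the edgeR adjusted p was 0.0506 (log2 fold change 0.41 ± 0.12, SE), and it passed under 6 of 8 other settings that kept all 4 libraries. Leaving out each mouse in turn moved the log2 fold change between 0.30 and 0.50.

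**Figure D2:**
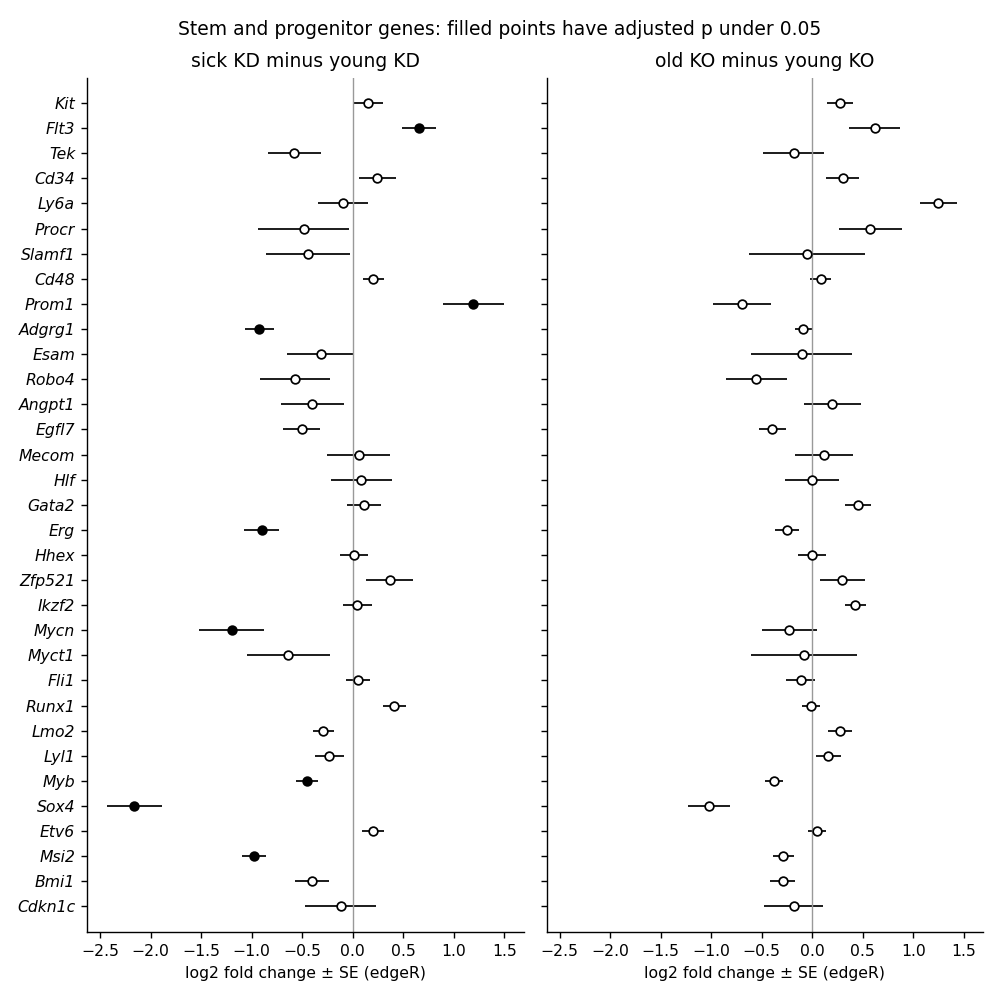
Log2 fold changes of the 33 genes with their standard errors (edgeR), for sick against young KD on the left and old against young KO on the right. Filled points have an adjusted p under 0.05: 8 genes in the left panel, led by Sox4 at -2.16 and Prom1 at 1.19, and none in the right panel, where Ly6a at 1.25 and Sox4 at -1.02 lie farthest from 0.

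The classical stem cell markers did not pass the test in this comparison. Kit, the stem cell factor receptor gene (ENSMUSG00000005672, chr5:75574916-75656722, plus strand), was at 44.9 and 48.0 CPM in sick KD and 37.3 and 47.0 in young KD (log2 fold change 0.15 ± 0.14 (SE), edgeR adjusted p = 0.480). Cd34 (ENSMUSG00000016494, chr1:194938819-194961279, plus strand), the gene of the sialomucin that marks progenitors, was at 104 and 143 CPM in sick KD and 92.9 and 117 in young KD (log2 fold change 0.24 ± 0.19 (SE), edgeR adjusted p = 0.379). Procr (ENSMUSG00000027611, chr2:155751117-155755471, plus strand), the endothelial protein C receptor gene that marks the most primitive stem cells, was at 0.479 and 0.986 CPM in sick KD and 1.30 and 0.782 in young KD (log2 fold change -0.49 ± 0.45 (SE), edgeR adjusted p = 0.472). In the KO groups, Kit was at 49.2 and 51.5 CPM in old KO and 46.9 and 36.4 in young KO. Cd34 was at 135 and 174 CPM in old KO and 141 and 109.7 in young KO. Procr was at 1.48 and 1.18 CPM in old KO and 1.03 and 0.731 in young KO. Sick and young KD values overlapped for each of these 3 genes.

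The stem cell factor genes Mecom, Hlf and Gata2 also did not pass. Mecom (ENSMUSG00000027684, chr3:29951296-30548008, minus strand), whose product EVI1 sustains long-term stem cells, was at 0.878 and 0.916 CPM in sick KD and 0.922 and 0.812 in young KD (log2 fold change 0.06 ± 0.31 (SE), edgeR adjusted p = 0.910). Hlf (ENSMUSG00000003949, chr11:90336536-90390895, minus strand), which marks stem cells and keeps them quiescent, was at 1.44 and 1.55 CPM in sick KD and 1.20 and 1.65 in young KD (log2 fold change 0.08 ± 0.30 (SE), edgeR adjusted p = 0.867). Gata2 (ENSMUSG00000015053, chr6:88193891-88207032, plus strand), a factor of stem cells and of the mast cell and basophil lineage, was at 9.38 and 11.0 CPM in sick KD and 9.17 and 9.87 in young KD (log2 fold change 0.11 ± 0.17 (SE), edgeR adjusted p = 0.676). Values of sick and young KD overlapped for all 3 genes. Mecom was at 1.02 and 1.36 CPM in old KO and 1.06 and 1.16 in young KO, and Hlf at 1.26 and 1.34 CPM in old KO and 1.22 and 1.40 in young KO. Among the other 18 genes below the threshold, log2 fold changes ran from -0.64 for Myct1 to 0.36 for Zfp521.

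Genes of several other lineages took a smaller share of the counts in sick KD marrow, and these values stand beside the falls above. All 14 erythroid genes fell, with sums of 1114 and 1543 CPM in sick KD against 6051 and 2542 in young KD. Of 12 stromal genes 10 fell, with sums of 31.1 and 30.9 against 177 and 221 CPM. Of 12 monocyte and macrophage genes 2 rose and 5 fell, and their sums were higher in sick KD, at 8650 and 7866 against 5560 and 6401 CPM. Of 16 granulocyte-monocyte progenitor genes 6 rose and 1 fell. Among them Ms4a3, a membrane protein gene of granulocyte-monocyte progenitors, and Elane, the neutrophil elastase gene, rose, by 1.02 ± 0.13 and 0.86 ± 0.14 (SE) on the log2 scale (edgeR adjusted p = 0.00722 and 0.0136), and Mycl fell (-2.18 ± 0.32, adjusted p = 0.00983). The part of these cell types, of the higher mitochondrial share and of the larger share of reads overlapping no gene feature in the falls of Sox4, Msi2, Adgrg1, Erg, Mycn and Myb was not tested.

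A second list of 40 stem and progenitor genes, of which 37 were tested, showed 2 genes higher and 6 lower in sick KD, with a median log2 fold change of -0.26. The 3 with the largest changes were Gimap1, a GTPase gene of the lymphoid lineage (-2.52 ± 0.19, adjusted p = 0.00327 by edgeR), Gfi1b, the paralog of Gfi1 that acts in erythroid and megakaryocytic cells (-1.57 ± 0.24, adjusted p = 0.0116), and Tal1, the bHLH partner of Lmo2 (-1.44 ± 0.26, adjusted p = 0.0166). Of 9 tested genes for receptor ligands and niche factors, 1 rose and 3 fell. By edgeR, the 3 that fell were Cxcl12, the chemokine that retains stem cells in marrow (-2.17 ± 0.20, adjusted p = 0.00414), Kitl, the ligand of Kit (-1.26 ± 0.28, adjusted p = 0.0269), and the adhesion molecule gene Vcam1 (-0.99 ± 0.14, adjusted p = 0.00949). Cxcl12 and Kitl also stand in the stromal list, and Kit itself did not pass the test.

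Promoter sequence is shown for Mycn and Slamf1, which hold the AAATCA core of the GFI1 binding site, and for Sox4, whose level changed most. The capitals mark AAATCA or its reverse complement in Mycn and Slamf1 and the E-box CAGCTG in Sox4. Sequences are from RefSeq (GRCm38.p6) and stop before the annotated gene: 172 bases for Mycn (chr12:12941915-12942086, minus strand), 245 for Slamf1 (chr1:171766882-171767126, plus strand) and 236 for Sox4 (chr13:28953714-28953949, minus strand).
Mycn: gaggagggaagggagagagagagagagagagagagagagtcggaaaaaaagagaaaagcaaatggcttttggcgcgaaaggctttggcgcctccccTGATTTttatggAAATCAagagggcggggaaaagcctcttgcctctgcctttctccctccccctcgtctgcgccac
Slamf1: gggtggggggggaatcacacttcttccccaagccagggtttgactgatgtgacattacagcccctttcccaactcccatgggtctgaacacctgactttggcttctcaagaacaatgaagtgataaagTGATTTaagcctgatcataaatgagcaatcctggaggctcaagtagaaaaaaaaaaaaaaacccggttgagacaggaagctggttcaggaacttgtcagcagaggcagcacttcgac
Sox4: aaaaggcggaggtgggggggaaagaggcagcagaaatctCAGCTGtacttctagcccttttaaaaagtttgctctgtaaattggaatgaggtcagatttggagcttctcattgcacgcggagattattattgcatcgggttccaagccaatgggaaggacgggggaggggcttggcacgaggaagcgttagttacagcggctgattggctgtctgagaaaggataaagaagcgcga
The Mycn sequence holds the core on each strand, starting 154 and 142 bases before the RefSeq start, and the Slamf1 sequence holds it 122 bases before the start. Windows of 300 bases, from 250 before to 50 after each start, were available for 25 of the 33 genes. On either strand, AAATCA occurred in 7 of these 25 (Bmi1, Cd34, Egfl7, Etv6, Mecom, Mycn and Slamf1), or 28%, and in 15.9% of 27025 genes with a window. The E-box CAGCTG, which reads the same on both strands, occurred in 24% against 18.3%, the GATA factor site AGATAA in 12% against 12.7%, the RUNX site TGTGGT in 12% against 18.9% and the ETS site CCGGAAG in 8% against 9.93%. No marked motif overlapped another in the printed sequences. Among the 8 genes that passed in sick KD, Mycn alone held the GFI1 core in its window.

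**Figure D3:**
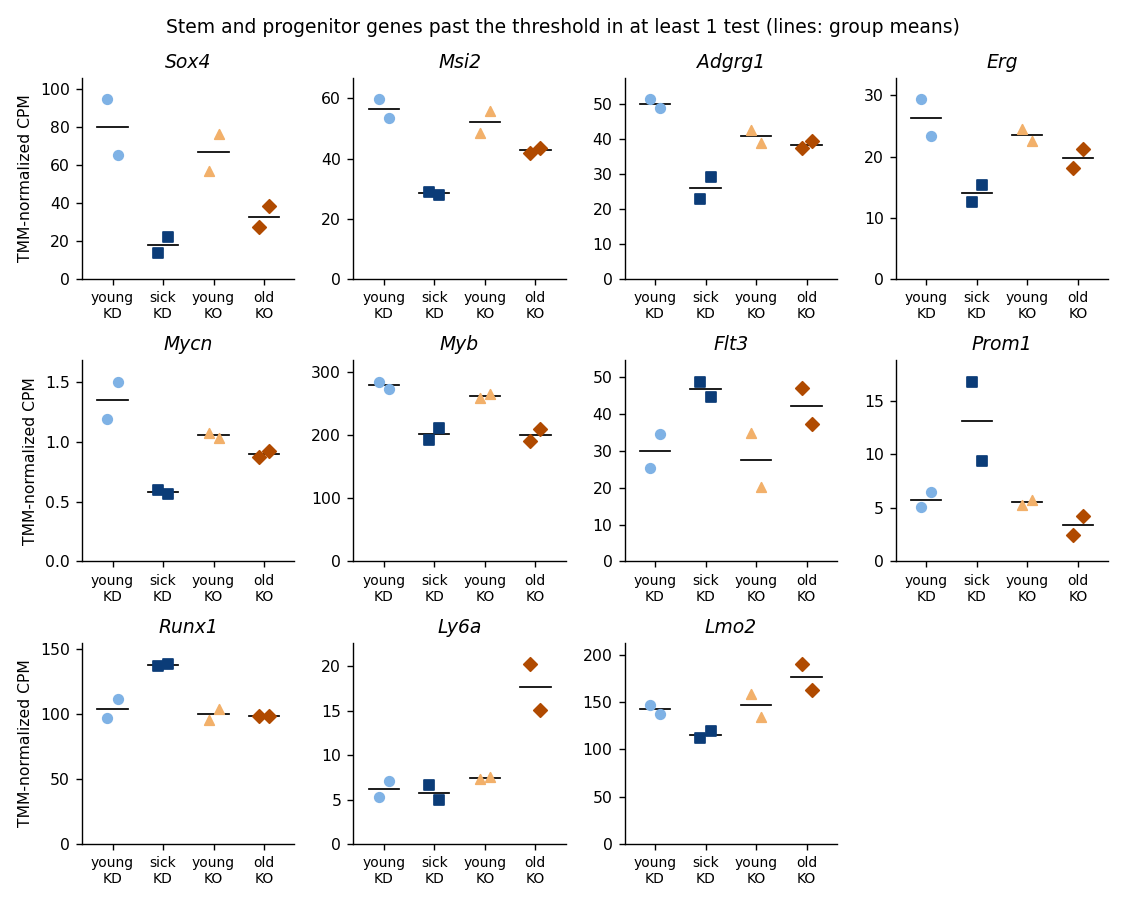
Normalized CPM of the 11 genes that passed the threshold in at least 1 test, with 1 point per mouse and a line at each group mean. Sox4, Msi2, Adgrg1, Erg and Mycn are lowest in sick KD, Prom1 and Runx1 are highest there, and Ly6a stands out in old KO at 20.2 and 15.0 CPM.

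Old KO marrow was compared with young KO marrow to show what changed with age in healthy mice without Gfi1. No gene of the 33 passed the test, where 0.929% of all genes did. At an unadjusted p under 0.05, 7 of the 33 differed (Egfl7, Gata2, Ikzf2, Ly6a, Msi2, Myb and Sox4) against a background of 8.86%. DESeq2 called 3, with Ly6a higher and Myb and Sox4 lower, where it called 2.47% of all genes. The median log2 fold change was -0.01 over the 33 genes and -0.00 over all genes.

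Ly6a (ENSMUSG00000075602, chr15:74994877-74998031, minus strand) encodes SCA-1, the stem cell antigen that interferons also induce. It was at 20.2 and 15.0 CPM in old KO, 7.28 and 7.55 in young KO, 6.59 and 4.93 in sick KD and 5.33 and 7.07 in young KD. Both old KO libraries were above the other 6, and the other 3 groups lay close together. The difference from young KO just missed the threshold (log2 fold change 1.25 ± 0.18 (SE), edgeR adjusted p = 0.0573). Leaving out each mouse in turn gave log2 fold changes from 1.01 to 1.46.

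Sox4 had a log2 fold change of -1.02 ± 0.21 (SE) between old and young KO (edgeR adjusted p = 0.140), and Myb one of -0.38 ± 0.09 (adjusted p = 0.188). For both genes each old KO library was below each young KO library. In this comparison 7 of the 14 lymphoid progenitor genes passed as lower. Gata2 was at 13.7 and 13.8 CPM in old KO and 10.5 and 9.68 in young KO, and Ikzf2, which encodes the Ikaros family factor Helios, at 28.1 and 27.7 and 20.0 and 21.5 CPM. Both genes were higher in the old KO libraries than in any of the other 6, though neither passed (edgeR adjusted p = 0.310 for Gata2 and 0.195 for Ikzf2). The 10 mast cell and basophil genes had the same arrangement, with sums of 414 and 458 CPM in old KO and 258 to 360.4 in the other 6 libraries, and their part in the Gata2 values was not tested.

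Young KO and young KD marrow were compared to show any difference between the genotypes in young mice. No gene of the 33 passed, and 0.0404% of all genes did. Log2 fold changes ran from -0.36 to 0.33. At an unadjusted p under 0.05, 1 of the 33 differed against 2.66% of all genes, and DESeq2 called none against 0.217%. The gene below the unadjusted threshold was Adgrg1, at 42.7 and 38.9 CPM in young KO and 51.3 and 48.8 in young KD (log2 fold change -0.31 ± 0.09, SE). With 2 mice in each group, the missed threshold does not show that the genotypes are alike.

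Old KO and sick KD marrow were compared because these mice were of comparable ages and differed in genotype and disease, which cannot be told apart. This comparison shares its libraries with those above. Ly6a, Lmo2, Msi2 and Adgrg1 were higher in old KO, and Prom1 and Runx1 were lower. The 4 higher genes were 12.1% of the 33 against 9.93% of all genes, and the 2 lower genes 6.06% against 8.22%, both shares near those of all genes. The median log2 fold change was 0.30 over the 33 genes and -0.00 over all genes, with 20 of the 33 above 0.

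Of the surface genes, Ly6a rose most (log2 fold change 1.60 ± 0.24 (SE), edgeR adjusted p = 0.00916), and the call held without each library. Prom1 fell (log2 fold change -1.96 ± 0.37 (SE), edgeR adjusted p = 0.0161), with its values of 2.49 and 4.24 CPM in old KO against 16.7 and 9.41 in sick KD. Without the 187-day sick KD mouse its log2 fold change was -1.49 with an adjusted p of 0.0556. Adgrg1 was only just past the threshold (log2 fold change 0.54 ± 0.15 (SE), edgeR adjusted p = 0.0484). It was lost without the 187-day sick KD mouse (edgeR adjusted p = 0.134), without the 158-day old KO mouse (0.0873) and without the 101-day old KO mouse (0.148). Without histone and small RNA genes it was 0.0524.

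Of the regulators, Lmo2 (ENSMUSG00000032698, chr2:103957986-103981878, plus strand), which encodes the LIM domain bridge of the stem cell factor complex and is also active in erythroid cells, was at 189.7 and 163 CPM in old KO. It was at 111 and 119 CPM in sick KD, 159 and 134 in young KO and 147 and 138 in young KD, so both sick KD libraries were the lowest of the 8. The difference passed (log2 fold change 0.60 ± 0.13 (SE), edgeR adjusted p = 0.0262), with adjusted p of 0.0747 without the 187-day sick KD mouse and 0.151 without the 158-day old KO mouse. All 14 erythroid genes were also higher in old KO than in sick KD, with sums of 6849 and 4391 CPM in old KO. Their part in the Lmo2 values was not tested.

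Msi2 was higher in old KO (log2 fold change 0.57 ± 0.11 (SE), edgeR adjusted p = 0.0195), and it was lost without the 158-day old KO mouse (adjusted p = 0.0550) or the 101-day old KO mouse (0.0861). Runx1 was lower (log2 fold change -0.50 ± 0.11 (SE), edgeR adjusted p = 0.0259), at 98.3 and 98.5 against 137 and 138 CPM. Its log2 fold change moved only from -0.49 to -0.50 when a mouse was left out, but the adjusted p was 0.0507 without the 187-day sick KD mouse, 0.162 without the 158-day old KO mouse and 0.141 without the 101-day old KO mouse. Sox4 did not pass (log2 fold change 0.87 ± 0.26, SE, edgeR adjusted p = 0.0592). In the second list of 37 tested stem and progenitor genes, 7 were higher in old KO and 2 lower, with a median of 0.33. The largest differences were in Pdzk1ip1 (2.05 ± 0.25 on the log2 scale, adjusted p = 0.00532 by edgeR), Gimap1 (1.87 ± 0.22, adjusted p = 0.00520) and Tal1 (1.76 ± 0.25, adjusted p = 0.00753). Of the ligand and niche genes, 3 of 9 were higher and 1 lower.

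The interaction term asked whether the change from young to old KO differed from the change from young to sick KD, over all 8 libraries. It passed for 4 of the 33 genes, or 12.1%, where 7.43% of all genes passed. Adgrg1 (log2 fold change 0.84 ± 0.17 (SE), edgeR adjusted p = 0.0328), Msi2 (log2 fold change 0.69 ± 0.15 (SE), edgeR adjusted p = 0.0360) and Ly6a (log2 fold change 1.34 ± 0.32 (SE), edgeR adjusted p = 0.0449) had the higher change in KO. The changes themselves were -0.93 in KD and -0.09 in KO for Adgrg1, -0.98 and -0.28 for Msi2 and -0.10 and 1.25 for Ly6a, on the log2 scale. Prom1 had the lower change in KO (log2 fold change -1.89 ± 0.46 (SE), edgeR adjusted p = 0.0473), with 1.19 in KD and -0.70 in KO. None of these calls held without each mouse in turn. Leaving out any young mouse or the 187-day sick KD mouse left none of the 4, with edgeR adjusted p from 0.0537 to 0.173. Without the 78-day sick KD mouse Adgrg1 and Prom1 passed, without the 101-day old KO mouse Ly6a and Prom1 passed, and without the 158-day old KO mouse none did. Without histone and small RNA genes the edgeR adjusted p was 0.0515 for Ly6a and 0.0526 for Prom1. Sox4, with log2 fold changes of -2.16 in KD and -1.02 in KO, had an interaction of 1.14 ± 0.39 (SE) with an edgeR adjusted p of 0.108, so this test did not show them to differ. The Sox4 interaction passed under 2 of 7 other settings that kept all 8 libraries.

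Slamf1 and Esam varied between the mice of each group along with megakaryocyte genes and also with endothelial genes. Slamf1 (ENSMUSG00000015316, chr1:171767127-171801184, plus strand), the gene of the stem cell marker CD150 that megakaryocytes also carry, was at 6.59 and 1.80 CPM in the 48-day and 44-day young KO mice and at 3.06 and 6.56 CPM in the 39-day and 42-day young KD mice. It was at 4.27 and 2.75 CPM in sick KD and 4.85 and 3.29 in old KO. The summed level of 13 megakaryocyte genes, such as Pf4 and Itga2b, was 526 and 126 CPM in the same young KO mice, 190.2 and 483 in young KD, 283 and 149 in sick KD and 390.1 and 245 in old KO. In each of the 4 groups the mouse with more megakaryocyte transcripts had more Slamf1, and likewise for Esam. The summed level of 14 endothelial genes had the same order within each group. It was 223 and 127 CPM in young KO, 146 and 214 in young KD, 154 and 143 in sick KD and 189.5 and 144 in old KO. Both lists hold the gene Vwf. Slamf1 and Esam were also correlated with the endothelial sum, only as part of the adjustment described below. Those correlations are not given here, and which list the genes followed more closely was not tested.

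Over the 8 libraries the log2 levels of Slamf1 and of the megakaryocyte sum correlated with Pearson's r = 0.977 (exact permutation p = 2.48e-05, the smallest that 40320 orderings can give) and Spearman's rho = 1 (exact permutation p = 4.96e-05). Without the 2 young KO mice, which lie farthest from the median sum, r was 0.971. Esam (ENSMUSG00000001946, chr9:37528078-37538319, plus strand), an adhesion molecule gene of stem cells, platelets and endothelium, had r = 0.938 (exact permutation p = 0.000397), rho = 0.952 (p = 0.00114) and r = 0.896 without those mice. The megakaryocyte list was singled out from 13 marker lists after its values were seen, so p-values were adjusted over all 429 pairs of a gene and a list. The adjusted permutation p was 0.0106 for r and 0.0213 for rho with Slamf1, and 0.0142 and 0.0489 with Esam. All permutations shuffled the 8 libraries without regard to group. Their p-values thus refer to the 8 libraries together and do not measure the order of mice within a group.

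Myct1 (ENSMUSG00000046916, chr10:5593775-5606904, plus strand), a stem cell and endothelial gene, had r = 0.902 with an adjusted exact permutation p of 0.0546 and rho = 0.833 with 0.140, and Angpt1 (ENSMUSG00000022309, chr15:42424723-42676977, minus strand), the ligand of Tek made by stem cells and megakaryocytes, had r = 0.873 with 0.0674 and rho = 0.905 with 0.0890. Tek, the receptor itself, had r = 0.630 with an adjusted p of 0.312. For Slamf1, Esam, Myct1 and Angpt1 standard errors between sick and young KD were 0.31 to 0.42 on the log2 scale. Errors of this size were not particular to these genes. They were 0.45 for Procr and 0.34 for Robo4, whose r with the megakaryocyte sum was 0.088 and 0.044. The mouse with more megakaryocyte transcripts had more Angpt1 in 3 of the 4 groups and more Myct1 in 2, and neither gene passed after adjustment.

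**Figure D4:**
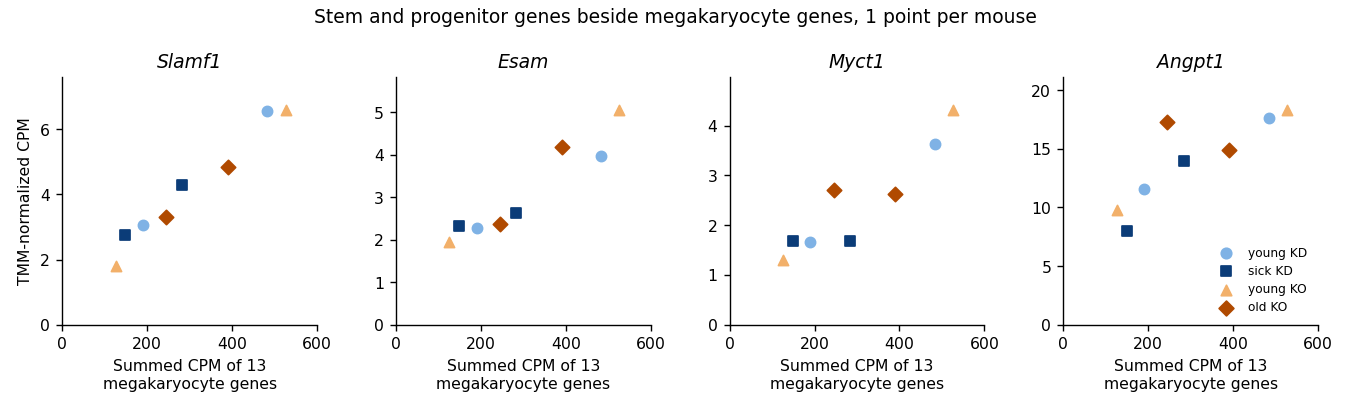
Normalized CPM of Slamf1, Esam, Myct1 and Angpt1 in each mouse against the summed CPM of 13 megakaryocyte genes. The 2 mice of a group lie apart along the horizontal axis, at 526 and 126 CPM in young KO, and Slamf1 follows the megakaryocyte sum across all 8 mice, from 1.80 to 6.59 CPM.

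Over the 5 tests, 22 of the 33 genes passed in none. Besides those described above, Tek, the angiopoietin receptor gene that marks quiescent stem cells and endothelium, ranged from 1.52 to 3.13 CPM over the 8 libraries, and Robo4, a guidance receptor gene of the same cells, from 0.759 to 1.64. Cd48 ranged from 170.3 to 212 CPM. Of the transcription factor genes, Fli1, the ETS factor of megakaryocytes and stem cells, ranged from 133 to 176 CPM, Etv6 from 114 to 137, the homeobox gene Hhex from 18.7 to 24.8 and the zinc finger gene Zfp521 from 2.68 to 4.30. Bmi1, the Polycomb gene needed for self-renewal, ranged from 15.0 to 27.0 CPM, with its lowest value in the 78-day sick KD mouse, and Cdkn1c, the p57 cell cycle inhibitor gene of quiescent stem cells, from 0.745 to 1.20.

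Some counts could hold reads of a neighbour. Exons of Egfl7, which encodes a secreted factor, overlap those of Agpat2 on the other strand, and exons of Lyl1 overlap those of Nfix on the other strand, at up to 38.7 and 39.7 CPM of the neighbour. Whether counting used strand is not given in the sources used here. Egfl7 was at 8.07 and 9.90 CPM in sick KD and 14.1 and 11.6 in young KD, and Lyl1 at 101 and 130.0 and 136 and 137 CPM, and neither passed in any comparison.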

How the data were processed

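Total bone marrow RNA of 8 mice was sequenced from TruSeq Stranded mRNA libraries on an Illumina HiSeq. As deposited by the authors, the values are raw counts per Ensembl gene, made per the submitters' processing notes with TopHat2 2.0.10 on mm10, SAMtools and HTSeq. The Ensembl release and the strand setting of the counting are not given in the sources used here. Gene names and GRCm38 positions came from GENCODE M21, which named 40340 of 41214 genes. The 5 tallies of unassigned reads were kept out of library sizes.

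Groups followed the labels, with 2 mice each and replicates numbered in accession order. Counts were normalized by TMM and tested with edgeR 4.0.16 (R 4.3.3, quasi-likelihood test, filterByExpr by group, Benjamini-Hochberg adjustment over all genes tested, threshold 0.05). Each pairwise test used its own 4 libraries and the interaction used all 8. With 2 mice against 2, an exact permutation test cannot go below p = 0.333, so only the fit across all genes was used. Each SE was derived from the fold change and the F statistic of its test. DESeq2 1.42.0, other scalings, filters and left-out mice were alternatives. The edgeR step was tested on simulated data. Replicates differed by more than sampling noise in every group (chi-square per degree of freedom 21.8 to 35.9). The 33 genes, the marker lists and the tests were chosen with earlier results of these data known. Genes were described in every library if past the threshold in any test, and Kit, Cd34, Flt3, Ly6a, Procr, Mecom, Hlf and Gata2 in any case. From other lists, the 3 genes with the largest change past the threshold were named. Promoter windows were matched by symbol for 25 of 33 genes.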

Additional observations from a re-analysis of the deposited data

Results flagged for a closer look

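The edgeR interaction test over all 8 libraries passed for 4 of the 33 genes. For these, the change from young to old KO differed from the change from young to sick KD. They were 12.1% of the 33, where 7.43% of all genes tested passed. The interaction was 0.84 on the log2 scale for Adgrg1, 0.69 for Msi2 and 1.34 for Ly6a, all higher in KO, and -1.89 for Prom1, lower in KO. Each call was lost without at least 6 of the 8 mice in turn.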

How the results depend on the processing

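No gene changed direction past the threshold under any alternative. For sick against young KD, the 2 higher genes became 4 with the GC, length and span trend removed, and 0 to 2 when 1 mouse was left out, and the 6 lower genes became 3 to 6. For old against young KO, where edgeR called none, DESeq2 gave 1 higher and 2 lower genes and no filter gave 2 higher and 2 lower, with 0 to 1 higher when a mouse was left out. For old KO against sick KD, the 4 higher genes ranged from 2 to 5 and the 2 lower genes from 0 to 2 over left-out mice. For the interaction, the 3 higher genes became 5 with DESeq2, 6 with no filter and 0 to 1 over left-out mice, and the 1 lower gene became 0 without histone and small RNA genes and 0 to 1 over left-out mice. Where a fit left a group with 1 mouse, that mouse was assumed to vary like the others. The causes were not tested. The fewest counts of a gene in a library were 12, for Procr. Over all alternatives, and in all comparisons, 613 log2 fold changes of the 11 genes that passed in at least 1 comparison kept their side of the threshold, 57 no longer passed and 23 newly passed. Without TMM, the summed CPM of the 33 genes moved by more than the spread between replicates in 4 of 8 libraries. No paired analysis was possible because the labels give no shared replicate numbers.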
